A study of Mus musculus with 9 samples.

Results

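The RNA of 10 genes that mark resident and scavenging macrophages was followed with age in the lacrimal gland, which makes the watery layer of tears. The genes were chosen by name, without a cut-off on a measured value, but with earlier results of these data known. Cd163, Mrc1, Lyve1 and Folr2 code for receptors that take up cargo, and Timd4, Mertk and Axl for receptors that bind dying cells. Csf1r, Cx3cr1 and Adgre1 mark macrophages or receive the signals that maintain them. The 10 genes are among the 54232 genes in the count table, and each matched exactly 1 gene. All 9 libraries came from female mice of the inbred strain C57BL/6J, with no transgene or treatment named, fed freely under a day of equal light and dark. The 3 groups were ages of 2, 12 and 24 months with 3 libraries each, and the sample titles of the youngest group read 8W. RNA of the gland was sequenced in pairs of 100 bp reads. No label names separate mice, so p-values measure only the spread between libraries, which may be technical.

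Resident macrophages settle in a tissue early in life and are kept there by signals through the receptor that Csf1r encodes, whose ligands are made by neighbouring cells. Many clear haemoglobin through the Cd163 receptor, mannose-bearing glycoproteins and collagen through the Mrc1 receptor, and dying cells through Mertk, Axl and Timd4, which recognise phosphatidylserine directly or through bridging proteins. Connective tissue macrophages with Lyve1, Folr2 and Timd4 are known in many organs as a long-lived, self-renewing type, while cells that enter from blood monocytes usually lack Timd4. In RNA of a tissue, fewer cells of a type and less RNA per cell cannot be told apart.

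Sequences upstream of the start of 4 genes are shown, and these genes were picked by their values at the 3 ages. Cd163 and Mertk had their lowest values at 12 months, and Mrc1 and Axl at 2 months. The highest mean of all 4 was at 24 months. Genes picked in this way cannot test a link between letters and ages. Each sequence is the 250 bases before a RefSeq transcript start in build GRCm38.p6, read 5′ to 3′ on the gene's strand. Capitals mark the letters GAGGAA on either strand (TTCCTC on the other), the core bound by PU.1, the factor encoded by Spi1 that many macrophage genes need.
Cd163 (chr6:124304401-124304650, + strand): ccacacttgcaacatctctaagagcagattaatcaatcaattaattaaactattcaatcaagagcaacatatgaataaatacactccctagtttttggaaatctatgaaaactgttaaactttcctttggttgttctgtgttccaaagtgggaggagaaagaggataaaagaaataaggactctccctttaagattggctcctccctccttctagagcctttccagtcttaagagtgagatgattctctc
Mertk (chr2:128698665-128698914, + strand): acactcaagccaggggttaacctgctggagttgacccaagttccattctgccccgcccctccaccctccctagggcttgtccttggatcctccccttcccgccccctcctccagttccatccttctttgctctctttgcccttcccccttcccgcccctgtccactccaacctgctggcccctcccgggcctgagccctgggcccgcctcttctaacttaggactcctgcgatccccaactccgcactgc
Mrc1 (chr2:14229164-14229413, + strand): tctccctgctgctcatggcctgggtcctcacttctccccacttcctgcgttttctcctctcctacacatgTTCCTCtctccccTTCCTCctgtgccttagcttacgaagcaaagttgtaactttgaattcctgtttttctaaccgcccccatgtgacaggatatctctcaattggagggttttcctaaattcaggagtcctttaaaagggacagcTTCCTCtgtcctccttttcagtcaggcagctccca
Axl (chr7:25788734-25788983, - strand): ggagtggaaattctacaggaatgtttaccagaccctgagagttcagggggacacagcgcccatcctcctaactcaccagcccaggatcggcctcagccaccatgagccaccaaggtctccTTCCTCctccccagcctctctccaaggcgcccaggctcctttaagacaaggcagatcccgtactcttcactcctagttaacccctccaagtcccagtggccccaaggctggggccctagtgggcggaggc
The Mrc1 sequence held 3 such matches and the Axl sequence 1, and the Cd163 and Mertk sequences held 0. Of these 250 bases, G and C made up 36.8% for Cd163, 63.6% for Mertk, 49.6% for Mrc1 and 60.0% for Axl, and the Cd163 sequence had 0 CpG. RefSeq promoters of 300 bases, with 50 bases past the start, were read for 7 of the 10 genes in 8 entries. Adgre1 and Lyve1 had no entry, and the promoter of Csf1r is not reported here. Of the 8 entries, 2 held the PU.1 letters. Of all 32851 promoters of that length, 28.3% held them. The AP-1 letters TGANTCA stood in 1 of the 8 entries (Folr2) and in 7.81% of all promoters, and the MAF letters TGCTGAC in 1 of the 8 (Timd4) and in 4.67% of all. The 3 motifs were searched on both strands, the AP-1 and MAF letters can share the bases TGAC, and a match is a description of the sequence only.

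The libraries held 40516863 to 42573877 counts each, and 14944 genes passed the filter on low counts. The water channel gene Aqp5, a marker of the acinar cells that secrete tears, was present in every library, at 246 to 307 CPM (counts scaled to a common library size, here by the trimmed mean of M-values, TMM). Some libraries stood apart. Salivary gland transcripts were highest in 2-month replicate 3, 12-month replicate 2 and 24-month replicate 2, where the salivary gene Bpifa2 reached 647, 293 and 200 CPM. Skeletal muscle transcripts appeared in 12-month replicates 1 and 3, with Acta1 at 7.70 and 22.4 CPM. B and T cell genes summed to 0.529 to 0.747 CPM at 2 months, 13.6 to 97.5 CPM at 12 months and 13.2 to 23.1 CPM at 24 months. Among the macrophage genes themselves, 2-month replicate 2 was often the lowest library and 24-month replicate 3 the highest. The calls of the 10 genes were also made without the salivary and without the muscle libraries, and list counts are given without them where they moved by over 1.5 times.

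Of the 10 genes, 7 had enough counts for the test: Cd163, Mrc1, Mertk, Axl, Csf1r, Cx3cr1 and Adgre1. Lyve1, Folr2 and Timd4 did not, and are described by their counts. The test was edgeR's quasi-likelihood test, fitted to all 14944 genes with Benjamini-Hochberg adjustment, and a gene is called where its adjusted p is under 0.05. Over the 3 ages together, 7 of the 7 tested genes were called, against 17.0% of all genes. The adjusted p ran from 0.00359 for Cd163 to 0.0381 for Cx3cr1. With 1 library left out, 4 to 7 of the 7 were called. The count was 4 without 24-month replicate 3, where Csf1r (edgeR adjusted p = 0.0523), Adgre1 (0.106) and Cx3cr1 (0.151) were lost. Adgre1 was lost in 4 of the 9 such fits and Cx3cr1 in 7. Without the 3 libraries with salivary transcripts only Axl was called, and without the 2 with muscle transcripts 4 of the 7 were.

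**Figure D1:**
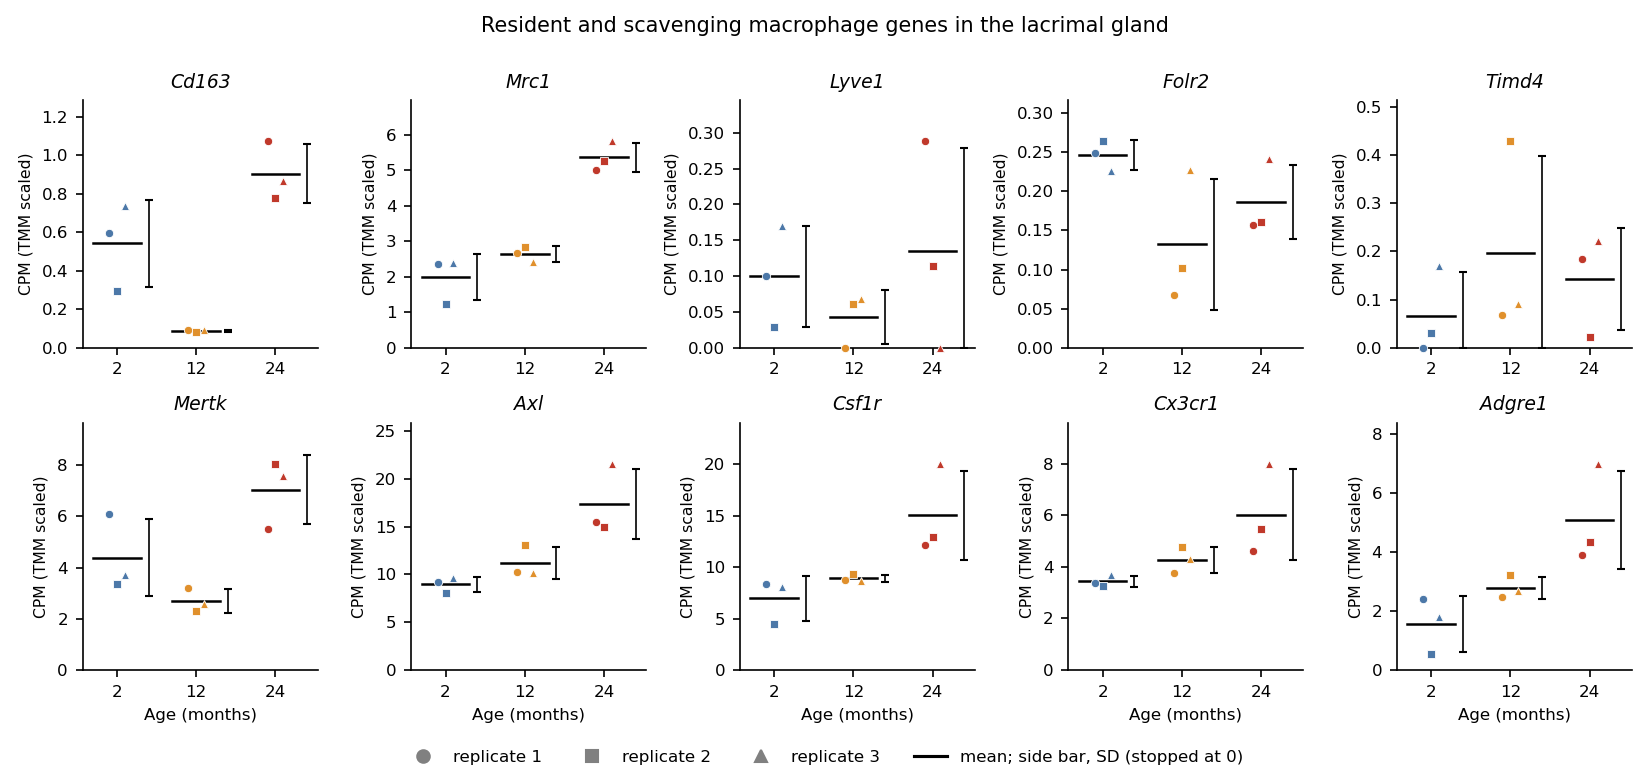
Level of each of the 10 genes in the 9 libraries, in CPM on a linear axis from 0, by age in months. Points are libraries, horizontal lines are means and side bars the SD (n = 3, drawn no lower than 0). Cd163 falls to 0.0818 to 0.0909 CPM in all 3 libraries of 12 months, while Mrc1, Axl, Csf1r and Adgre1 are highest in the 24-month libraries, and Lyve1, Folr2 and Timd4 stay under 0.5 CPM throughout.

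Cd163 (ENSMUSG00000008845, chromosome 6, 124304656 to 124330527, plus strand), a haemoglobin receptor gene of macrophages, fell to 4 counts a library at 12 months. At 2 months its counts were 24, 10 and 26 in replicates 1, 2 and 3. At 12 months they were 4, 4 and 4, and at 24 months 41, 34 and 43. This was 0.598, 0.294 and 0.736 CPM at 2 months, 0.0903, 0.0818 and 0.0909 CPM at 12 months, and 1.07, 0.779 and 0.866 CPM at 24 months. Every 12-month library lay below every library of the other ages. Summed over the 3 libraries, Cd163 had 60 counts at 2 months, 12 at 12 months (95% exact Poisson interval 6.20 to 20.96, counting error only) and 118 at 24 months. The level was 6.04-fold lower at 12 than at 2 months (log2 fold change -2.59, SE 0.51, edgeR adjusted p = 0.0103). From 12 to 24 months it rose 10.03-fold (log2 fold change 3.33, SE 0.51, edgeR adjusted p = 0.00353). Between 24 and 2 months the log2 difference was 0.73 (SE 0.43, edgeR adjusted p = 0.273), although the lowest 24-month library (0.779 CPM) lay just above the highest 2-month library (0.736 CPM). Cd163 reached the filter's 10 counts in the 6 libraries of 2 and 24 months only. The call between 12 and 2 months was lost without 12-month replicate 2 (edgeR adjusted p = 0.0523), without the 3 libraries with salivary transcripts (0.220) and without the 2 libraries with muscle transcripts (0.117), with a log2 difference of -2.27 to -2.69 in those fits. The call between 24 and 12 months held with any 1 library left out (edgeR adjusted p 0.00309 to 0.0206) and was lost without the salivary (0.0650) and without the muscle libraries (0.127). Of the 7 genes Cd163 alone was called lower at 12 than at 2 months and higher at 24 than at 12, a pattern called in 0.683% of all genes.

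Mrc1 (ENSMUSG00000026712, chromosome 2, 14229392 to 14332057, plus strand), which codes for the mannose receptor CD206, was highest in the 24-month libraries. It stood at 2.37, 1.23 and 2.38 CPM at 2 months, 2.67, 2.84 and 2.41 CPM at 12 months, and 5.002, 5.27 and 5.82 CPM at 24 months. No age overlapped another, though the highest 2-month and lowest 12-month libraries differed by little. Mrc1 was 2.68-fold higher at 24 than at 2 months (log2 fold change 1.42, SE 0.24, edgeR adjusted p = 0.00292) and 2.03-fold higher at 24 than at 12 months (1.02, SE 0.23, adjusted p = 0.0291). The log2 difference between 12 and 2 months was 0.40 (SE 0.24, edgeR adjusted p = 0.356). The call between 24 and 12 months was lost on leaving out any 1 of the 6 libraries of those ages, with an edgeR adjusted p of 0.0510 to 0.0914 and a log2 difference of 0.97 to 1.09. The 12-month libraries, the lowest for Cd163, were thus the middle ones for this second scavenger receptor gene.

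Of the tested receptor genes for dying cells, Mertk had its lowest and Axl its middle levels at 12 months. Mertk (ENSMUSG00000014361, chromosome 2, 128698956 to 128802894, plus strand) codes for a receptor kinase of the TAM family (TYRO3, AXL, MERTK) that engulfs dying cells through the bridging proteins GAS6 and protein S. It stood at 6.10, 3.35 and 3.71 CPM at 2 months, 3.21, 2.31 and 2.59 CPM at 12 months, and 5.50, 8.04 and 7.57 CPM at 24 months. The 12-month libraries lay below all others, while the ages of 2 and 24 months overlapped through 2-month replicate 1. Mertk was 2.61-fold higher at 24 than at 12 months (log2 fold change 1.38, SE 0.24, edgeR adjusted p = 0.00801). The log2 difference was -0.70 between 12 and 2 months (SE 0.25, adjusted p = 0.106) and 0.68 between 24 and 2 months (SE 0.24, adjusted p = 0.0705). The last was called without 2-month replicate 1 (0.997, edgeR adjusted p = 0.0148) and without 24-month replicate 1 (0.83, adjusted p = 0.0468). The rise from 12 to 24 months held with any 1 library left out (edgeR adjusted p 0.00418 to 0.0385). It was not called without the salivary libraries (1.19, adjusted p = 0.143) or the muscle libraries (1.62, adjusted p = 0.100).

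Axl (ENSMUSG00000002602, chromosome 7, 25757273 to 25788705, minus strand), the second TAM receptor gene of the set, is also known in fibroblasts and vessel walls. It stood at 9.17, 8.10 and 9.65 CPM at 2 months, 10.3, 13.1 and 10.2 CPM at 12 months, and 15.5, 15.0 and 21.5 CPM at 24 months, with no overlap between ages. Axl was 1.93-fold higher at 24 than at 2 months (log2 fold change 0.95, SE 0.16, edgeR adjusted p = 0.00276), a call kept in 16 of 16 alternatives. It was 1.55-fold higher at 24 than at 12 months (0.63, SE 0.16, edgeR adjusted p = 0.0399), a call kept in 7 of 17 alternatives. That second call did not hold without 2-month replicate 1 or 3, 12-month replicate 1 or 3, or 24-month replicate 3 (edgeR adjusted p 0.0548 to 0.135). Between 12 and 2 months the log2 difference was 0.32 (SE 0.16, edgeR adjusted p = 0.255). Fibroblast genes moved in the same comparisons. Of 7 tested, 4 were higher at 24 than at 2 months (9.82% of all genes) and 2 higher at 24 than at 12 months (2.79%). The first count was 2 without 2-month replicate 2 or 24-month replicate 3, and the second was 0 without 2-month replicate 1, 12-month replicate 1 or 2, or 24-month replicate 3, or without the muscle libraries, and 1 without the salivary libraries. Among them Pdgfra, the growth factor receptor gene of fibroblasts, rose by 1.27 from 2 to 24 months (SE 0.26, edgeR adjusted p = 0.00787). Their summed level was 74.2 to 126, 82.6 to 95.3 and 126 to 197 CPM at 2, 12 and 24 months, with none of the 7 at 0, and their part in the Axl values was not tested.

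The genes of macrophage identity and upkeep were called between 24 and 2 months. Csf1r (ENSMUSG00000024621, chromosome 18, 61100598 to 61132149, plus strand), the receptor for the growth factors CSF1 and IL-34, stood at 8.37, 4.43 and 8.09 CPM at 2 months, 8.76, 9.28 and 8.66 CPM at 12 months, and 12.2, 12.9 and 20.01 CPM at 24 months. The 24-month libraries were all above the rest, and the ages of 2 and 12 months nearly touched. Csf1r was 2.15-fold higher at 24 than at 2 months (log2 fold change 1.11, SE 0.23, edgeR adjusted p = 0.00839), a call kept in 16 of 16 alternatives, and its log2 difference between 24 and 12 months was 0.76 (SE 0.23, adjusted p = 0.0868). The latter was called without 2-month replicate 2 (edgeR adjusted p = 0.0346) and by DESeq2 (adjusted p = 0.0122). Between 12 and 2 months the log2 difference was 0.35 (SE 0.23, edgeR adjusted p = 0.408).

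Adgre1 (ENSMUSG00000004730, chromosome 17, 57358691 to 57483527, plus strand) codes for F4/80, the classical surface marker of mouse macrophages. It stood at 2.39, 0.529 and 1.78 CPM at 2 months, 2.48, 3.21 and 2.68 CPM at 12 months, and 3.90, 4.35 and 6.99 CPM at 24 months, with 18 counts in 2-month replicate 2 against 96 and 63 in the other 2-month libraries. The ages did not overlap. It was 3.22-fold higher at 24 than at 2 months (log2 fold change 1.69, SE 0.40, edgeR adjusted p = 0.0151), and this call was lost without 24-month replicate 3 (1.39, adjusted p = 0.0610) and without the salivary libraries (1.90, adjusted p = 0.0919). The log2 difference was 0.82 between 12 and 2 months (SE 0.40, edgeR adjusted p = 0.250) and 0.87 between 24 and 12 months (SE 0.39, adjusted p = 0.249).

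Cx3cr1 (ENSMUSG00000052336, chromosome 9, 119901616 to 120069879, minus strand) codes for the receptor of the membrane-bound chemokine fractalkine. It stood at 3.36, 3.26 and 3.68 CPM at 2 months, 3.75, 4.76 and 4.29 CPM at 12 months, and 4.61, 5.48 and 7.99 CPM at 24 months. The 2-month libraries lay below all others, and 24-month replicate 1 lay inside the 12-month range. Cx3cr1 was 1.76-fold higher at 24 than at 2 months (log2 fold change 0.81, SE 0.21, edgeR adjusted p = 0.0196). EdgeR no longer called it without 2-month replicate 2 (0.0742), without 24-month replicate 3 (0.0895) or without the salivary libraries (0.104), at log2 differences of 0.78, 0.56 and 0.94. The log2 difference was 0.31 between 12 and 2 months (SE 0.21, edgeR adjusted p = 0.403) and 0.50 between 24 and 12 months (SE 0.20, adjusted p = 0.200). The strand setting of the counting is not given in the sources used here, and Csf1r shares ground with Hmgxb3 on the other strand, Mertk with the antisense gene Gm14011 and Cx3cr1, whose annotated body is long, with several genes on either strand, so reads in the shared stretches are uncertain.

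Lyve1, Folr2 and Timd4, the markers of the long-lived connective tissue type, were close to the limit of detection at every age. Lyve1 (ENSMUSG00000030787, chromosome 7, 110850607 to 110863239, minus strand), a hyaluronan receptor also found on lymphatic vessels, had counts of 4, 1 and 6 in the 2-month libraries, 0, 3 and 3 in the 12-month and 11, 5 and 0 in the 24-month libraries. Folr2 (ENSMUSG00000032725, chromosome 7, 101839988 to 101857194, minus strand), folate receptor beta, had counts of 10, 9 and 8 in the 2-month libraries, 3, 5 and 10 in the 12-month and 6, 7 and 12 in the 24-month libraries. Timd4 (ENSMUSG00000055546, chromosome 11, 46810800 to 46844332, plus strand), the phosphatidylserine receptor TIM-4, had counts of 0, 1 and 6 in the 2-month libraries, 3, 21 and 4 in the 12-month and 7, 1 and 11 in the 24-month libraries. The 3 ages overlapped for Lyve1 and Timd4, and for Folr2 the ages of 12 and 24 months overlapped with 2 months through their highest libraries.

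Summed over an age, Lyve1 had 11, 6 and 16 counts at 2, 12 and 24 months, Folr2 had 27, 18 and 25, and Timd4 had 7, 28 and 19, of which 21 of the 28 came from 12-month replicate 2. The 95% exact Poisson intervals of Folr2 were 17.8 to 39.3, 10.7 to 28.4 and 16.2 to 36.9 counts and overlap at all ages. With no count filter, the edgeR adjusted p of these 3 genes over the 3 ages was 0.697, 0.741 and 0.629. The unfiltered log2 difference between 12 and 2 months was -1.15 for Lyve1 (SE 1.18), -0.89 for Folr2 (SE 0.84) and 1.56 for Timd4 (SE 0.98), each a wider error than that of Cd163 (SE 0.51). The antisense gene Gm10602, which overlaps Folr2, had 37 to 73 counts a library, so the few Folr2 counts are uncertain too. Of 5 lymphatic endothelial genes matched, 3 were tested and 0 were called in any comparison by edgeR or by DESeq2, with 0, 1 and 1 at an unadjusted p under 0.05 between 12 and 2, 24 and 2, and 24 and 12 months. They summed to 14.2 to 19.1, 13.9 to 18.0 and 14.7 to 17.5 CPM by age, nearly all of it Reln, while the defining genes Prox1 and Mmrn1 had at most 0.138 and 0.0229 CPM.

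Between 12 and 2 months, 0 of the 7 tested genes were called higher and 1 (Cd163) lower by edgeR, against 5.41% and 2.52% of all genes, 7.93% in all. At an unadjusted p under 0.05 it was 0 higher and 2 lower, and DESeq2 called Cd163 alone. Of the 7 genes, 5 were higher in every 12-month library than in every 2-month library (background 15.1%) and the other 2, Cd163 and Mertk, were lower in every one (background 12.4%). The median log2 difference of the 7 was 0.32 against 0.01 for all genes. Between 24 and 2 months, 5 of the 7 were called higher and 0 lower, against 9.82% and 7.56% of all genes, 17.4% in all. At an unadjusted p under 0.05 it was 6 higher and 0 lower, and by DESeq2 also 6 and 0. The count was 3 without 24-month replicate 3 and 3 without the salivary libraries. Here 6 of the 7 did not overlap (background 18.4%), all but Mertk, and the median log2 difference was 0.95 against 0.01. Between 24 and 12 months, 4 of the 7 were called higher and 0 lower, against 2.79% and 1.60% of all genes, 4.39% in all. These were Cd163, Mertk, Mrc1 and Axl. At an unadjusted p under 0.05 it was 7 higher and 0 lower, and DESeq2 called 5 and 0. The count was 2 without 12-month replicate 1 or 3 or 24-month replicate 3, and 0 without the salivary or the muscle libraries. All but Cx3cr1 did not overlap (6 of 7, background 12.1%), and the median log2 difference was 0.87 against -0.02. Cd163 and Mertk alone lay lower at 12 months than at both other ages in every library (2 of 7, background 3.54%). The comparisons share libraries, so their counts are not independent of each other.

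**Figure D2:**
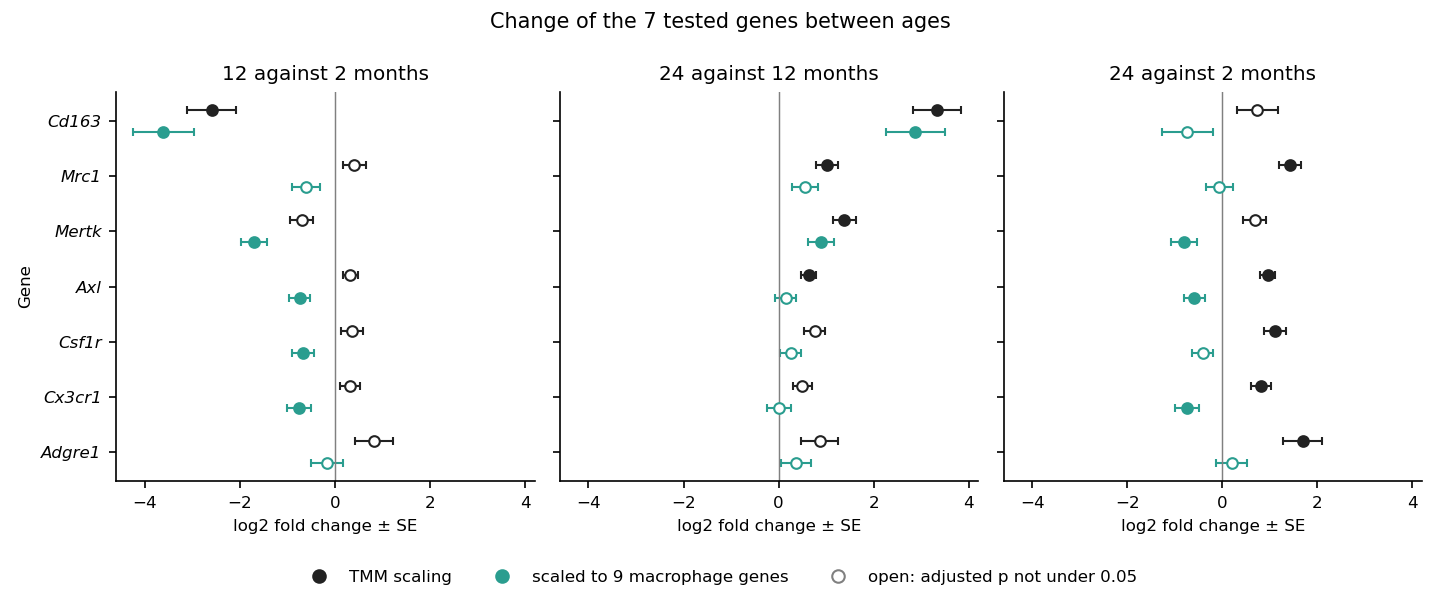
Change of the 7 tested genes in each comparison of ages, as log2 fold change ± SE from edgeR on the horizontal axis, with black points for TMM scaling and green points for scaling to 9 genes shared by macrophages; filled points have an adjusted p under 0.05. Cd163 lies at -2.59 and -3.61 between 12 and 2 months and at 3.33 and 2.88 between 24 and 12 months. Between 24 and 2 months the filled black points lie at 0.81 to 1.69 and the filled green points at -0.59 to -0.81.

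Genes that macrophages of most kinds share also rose with age, so the 10 genes were set beside 9 of them (Cd68, Aif1, Tyrobp, Fcer1g, C1qa, C1qb, C1qc, Ms4a7 and Fcgr3). Monocyte, dendritic cell and B and T cell genes were called higher after 2 months as well. The part of other cells in these 9 genes was not tested. By edgeR 8 of these 9 rose from 2 to 12 months and 9 from 2 to 24 months, against 5.41% and 9.82% of all genes. Between 12 and 24 months 0 were called (4.39% of all genes). The median log2 differences were 0.93, 1.49 and 0.55. In the last comparison 7 of the 9 were higher at an unadjusted p under 0.05 and DESeq2 called 5, and edgeR called 2 without 2-month replicate 1 or 24-month replicate 2 and 1 without 2-month replicate 2 or 12-month replicate 3. Their summed level was 64.6 to 78.2 CPM at 2 months, 119 to 149 CPM at 12 months and 175 to 244 CPM at 24 months. The lysosomal gene Cd68 rose by 1.97 (SE 0.19, edgeR adjusted p = 0.000461) from 2 to 12 months on the log2 scale, and the complement gene C1qc by 0.93 (SE 0.15, adjusted p = 0.00421). Of the 8 calls between 12 and 2 months, 5 were made without 2-month replicate 2, 5 without the muscle libraries and 1 (Cd68) without the salivary libraries.

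**Figure D3:**
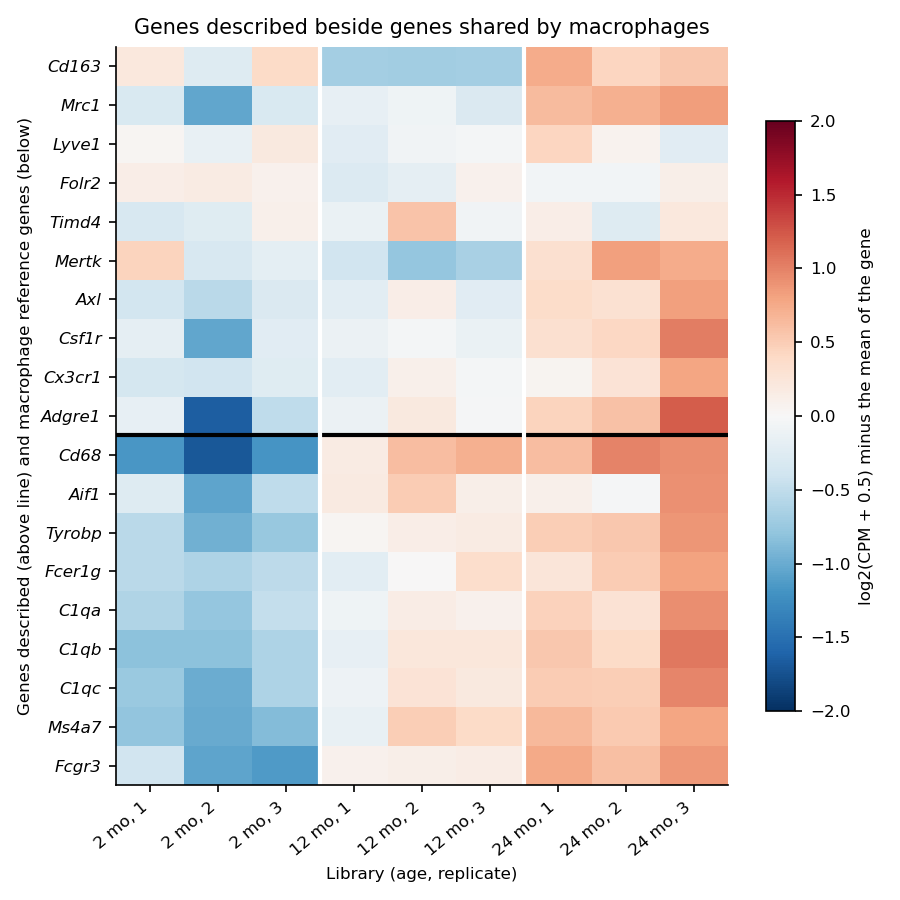
log2(CPM + 0.5) of the 10 genes (above the line) and the 9 shared macrophage genes (below it) in each of the 9 libraries, minus the mean of the gene, from blue (below the mean) to red (above it); the colour scale runs to 2 in either direction. The 12-month columns are blue in all 3 libraries for Cd163 and Mertk but near or above the mean for the 9 shared genes, and the 24-month columns are mostly red in both blocks.

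A second edgeR fit scaled each library to the geometric mean of those 9 genes, so that a log2 difference is relative to these genes. Between 12 and 2 months 5 of the 7 genes were lower on this scale, as were 73.1% of all genes, whose median log2 difference was -1.05. Cd163 (log2 fold change -3.61, SE 0.64, edgeR adjusted p = 3.03e-05) and Mertk (-1.71, SE 0.28, adjusted p = 1.53e-05) lay below that median, a 12.2-fold and a 3.26-fold lower level. Cx3cr1 (-0.75), Axl (-0.74) and Csf1r (-0.67) were also called and lay above it, and Mrc1 (-0.61, adjusted p = 0.0536) and Adgre1 (-0.17, adjusted p = 0.638) were not called by edgeR. By TMM scaling Axl, Cx3cr1 and Csf1r had differences above 0 in the same step, with no call. The Csf1r call on the macrophage scale was lost without 2-month replicate 3 (edgeR adjusted p = 0.0614). Mrc1 was called lower without 2-month replicate 2 (0.0209), 12-month replicate 1 (0.0452) or 24-month replicate 3 (0.0454). It was also called with the reference without C1qa, C1qb and C1qc (-0.73, adjusted p = 0.0244) and with Cd68 and Aif1 as the reference (-1.07, adjusted p = 0.00532). The Cd163 and Mertk calls held in 14 of 14 alternatives, with an edgeR adjusted p of 0.00497 and 0.00111 without the salivary libraries. Most genes were lower on this scale there too (8407 of 15048), so such a call alone does not set a gene apart from the rest. Cd163 and Mertk lay at -3.24 and -1.67 in that fit, where the median of all genes was -1.03. Without the muscle libraries they lay at -3.82 and -2.07, where it was -1.16. The Axl, Cx3cr1 and Csf1r calls were lost in both of those fits (adjusted p 0.0585 to 0.194). Folr2, which passed the filter in some fits with 1 library left out, was called lower in 3 of them.

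Between 24 and 2 months 3 of the 7 were lower on that scale (Axl -0.59, Cx3cr1 -0.74 and Mertk -0.81), against 81.3% of all genes with a median of -1.50, so these 3 lay above that median. Axl and Cx3cr1 were called higher, not lower, by TMM scaling. Csf1r (-0.41, edgeR adjusted p = 0.0909) was called lower without 2-month replicate 2 or 24-month replicate 3. Mrc1 (-0.06, SE 0.29, edgeR adjusted p = 0.840) and Adgre1 (0.20, SE 0.33, adjusted p = 0.575) stood nearest to the shared genes, and each had a fitted difference of the other sign in 1 or 2 fits with a library left out. The Mertk call was lost without 2-month replicate 1 (edgeR adjusted p = 0.0640), and without the salivary libraries Mertk alone was called (-1.14, adjusted p = 0.00586). Between 24 and 12 months 2 of the 7 were higher, Cd163 (2.88, SE 0.62, edgeR adjusted p = 0.00314) and Mertk (0.90, SE 0.27, adjusted p = 0.0302), against 1.12% of all genes higher and 13.1% lower, with a median of -0.48. The 1954 genes lower were 176 with Cd68 and Aif1 as the reference, 272 without 24-month replicate 3, 355 without 12-month replicate 1, 281 without the salivary libraries and 319 without the muscle libraries. The Cd163 call held in 12 of 14 alternatives and was lost without the salivary (2.81, edgeR adjusted p = 0.0644) and the muscle libraries (3.08, adjusted p = 0.0831). The Mertk call held in 8 of 14, not without those libraries (adjusted p 0.336 and 0.0961) and not without 12-month replicate 2 or 3 or 24-month replicate 2 or 3 (edgeR adjusted p 0.0625 to 0.100, log2 difference 0.69 to 0.99). The other 5 differed by 0.01 to 0.55 and were not called by edgeR, and Cx3cr1, nearest to 0, took the other sign in 5 alternatives.

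Set against Csf1r alone and per kb of exonic length, with Csf1r as 100 in each library, Cd163 stood at 7.55, 7.0 and 9.61 in the 2-month libraries, 1.09, 0.932 and 1.11 in the 12-month and 9.34, 6.40 and 4.57 in the 24-month libraries. No 12-month library came near those of the other ages, and the ages of 2 and 24 months overlapped. Mertk was 86.2 ± 21.9 at 2 months (SD, n = 3), 40.6 ± 7.82 at 12 months and 64.6 ± 16.8 at 24 months, with every 12-month library again the lower. Mrc1 was 25.8 ± 0.725, 26.8 ± 1.41 and 33.6 ± 6.26 at the same ages, so its ranges (mean ± SD) at 2 and 12 months overlapped. Axl was 157 ± 45.6, 144 ± 15.7 and 134 ± 11.5, Cx3cr1 68.0 ± 23.0, 61.4 ± 5.79 and 51.4 ± 2.95, and Adgre1 37.2 ± 15.0, 55.8 ± 5.58 and 59.9 ± 2.51. The wide spread of these 3 at 2 months came with replicate 2, where Csf1r had 151 counts against 336 and 286. Set against Cd68 in place of Csf1r, the 24-month ratios did not return to those of 2 months: Cd163 stood at 3.10, 2.30 and 3.86 in the 2-month libraries, 0.175, 0.113 and 0.118 in the 12-month and 1.49, 0.831 and 0.961 in the 24-month libraries, with no overlap between ages. Mertk to Cd68 was 32.5 ± 7.72, 5.36 ± 2.13 and 10.3 ± 0.630 (SD, n = 3) at 2, 12 and 24 months, and Mrc1 to Cd68 was 9.84 ± 1.34, 3.49 ± 0.879 and 5.44 ± 0.575, lowest at 12 months where its ratio to Csf1r was level. Every one of these 3 genes thus had its lowest ratios to Cd68 in the 12-month libraries. This did not set them apart, since the mean ratios of the other tested genes were lowest at 12 months too. At 2, 12 and 24 months these were 58.5, 18.5 and 22.2 for Axl and 38.05, 12.95 and 16.65 for Csf1r. They were 25.2, 7.85 and 8.53 for Cx3cr1 and 14.57 (SD 7.05), 7.16 and 10.02 for Adgre1. Cd68 itself rose by 1.97 and 2.32 on the log2 scale from 2 to 12 and to 24 months. The medians of the 9 shared genes were 0.93 and 1.49. All ratios to Csf1r and to Cd68 are a description and were not tested.

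**Figure D4:**
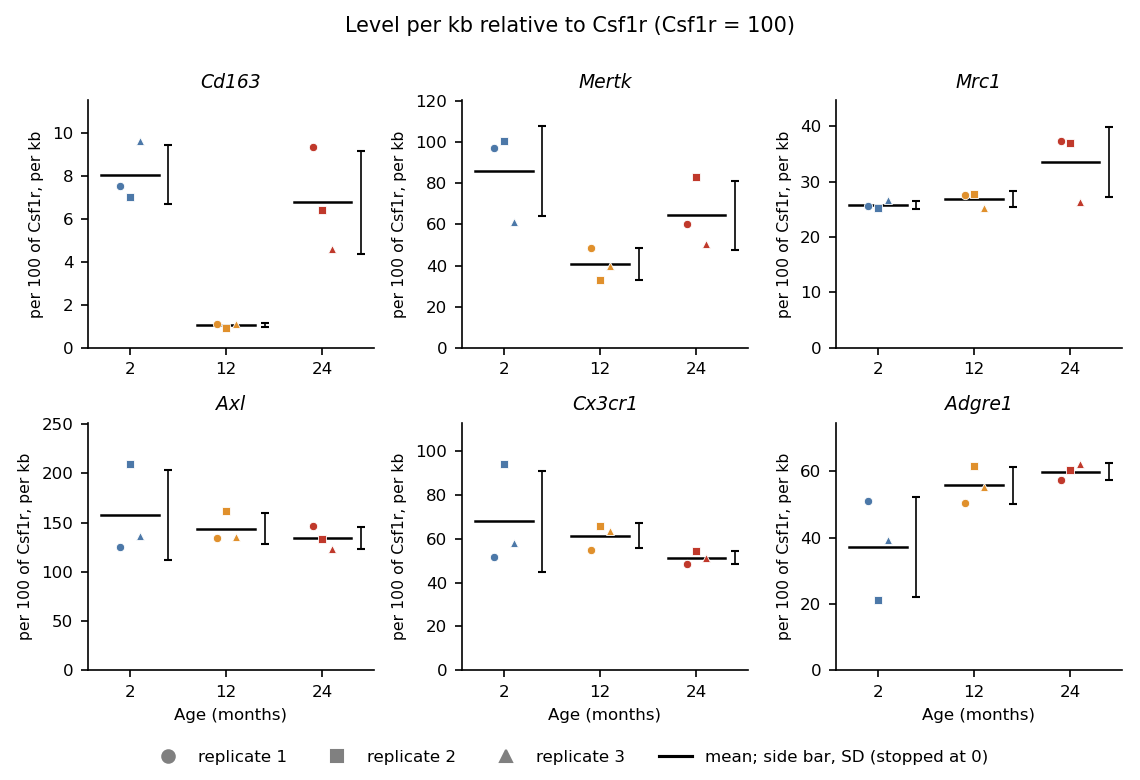
Level per kb of exonic length of 6 genes relative to Csf1r, set to 100 in each library, on linear axes from 0 by age in months. Points are libraries, horizontal lines means and side bars the SD (n = 3). The Cd163 ratio has means of 8.06, 1.04 and 6.77 by age, the Mertk ratio 86.2, 40.6 and 64.6, and the Mrc1 ratio is 25.8, 26.8 and 33.6.

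Levels can be ordered between genes only per length. In CPM per kb the order at 2 months was Axl 1.78 ± 0.157 (SD, n = 3), Csf1r 1.21 ± 0.381, Mertk 1.01 ± 0.346, Cx3cr1 0.762 ± 0.0485, Adgre1 0.484 ± 0.293 and Mrc1 0.313 ± 0.103. From Csf1r to Mrc1, the range of each gene (mean ± SD) overlapped that of the next. At 24 months it was Axl 3.44 ± 0.726, Csf1r 2.60 ± 0.752, Mertk 1.62 ± 0.312, Adgre1 1.57 ± 0.514, Cx3cr1 1.34 ± 0.390 and Mrc1 0.842 ± 0.0653, with each gene from Axl to Cx3cr1 within the spread of the next. At 12 months Mertk (0.623 ± 0.106) lay below Cx3cr1 (0.948 ± 0.113) and Adgre1 (0.862 ± 0.116), and at 2 months the spread did not separate Mertk from Cx3cr1. Folr2 (0.160 ± 0.0123), Cd163 (0.0993 ± 0.0414), Lyve1 (0.0341 ± 0.0241) and Timd4 (0.0306 ± 0.0418) came last at 2 months. At 12 months Cd163, with 0.0161 ± 0.000938, lay within the spread of Lyve1 (0.0148 ± 0.0129). At 24 months its 0.166 ± 0.0277 lay above Lyve1 (0.0460 ± 0.0497), and its range overlapped that of Folr2 (0.121 ± 0.0310).

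Across the 9 libraries most of the genes varied together. On log2(CPM + 0.5), Pearson's r was 0.977 for Csf1r with Adgre1, 0.955 for Csf1r with Mrc1 and 0.953 for Axl with Cx3cr1. Cd163 had its highest r with Mertk, at 0.843, and its lowest with Cx3cr1, at 0.359. The points share their libraries and ages, so these values describe the 9 libraries and carry no p. Among all tested genes, the 3 with the highest r to Mrc1 were Ccl6 (0.987), Eya2 (0.975) and Ntrk2 (0.971), and those to Mertk were Slc16a1 (0.971), Scgb2b6 (0.962) and Pde4a (0.959). For Axl they were Prrx2 (0.987), Vstm4 (0.981) and Svep1 (0.979), and for Csf1r Itsn1 (0.989), Plau (0.984) and Adgre1 (0.977). For Cx3cr1 they were Rgs2 (0.979), Xdh (0.975) and Mgat3 (0.975), and for Adgre1 Cfp (0.985), Cdc42bpb (0.984) and Csf1r (0.977).

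The counts of ligand genes of these receptors are read against 7.93%, 17.4% and 4.39% of all genes called in the 3 comparisons. Of 7 tested, 0 rose and 1 fell between 12 and 2 months by edgeR, with the same counts at an unadjusted p under 0.05 and by DESeq2. Between 24 and 2 months 1 rose and 1 fell, and between 24 and 12 months 0 were called by edgeR, with 3 higher and 1 lower at an unadjusted p under 0.05 and 1 called by DESeq2. Hp codes for haptoglobin, which binds free haemoglobin and is counted here with the ligand genes. It was an abundant transcript of the gland at 1711, 2881 and 1906 CPM at 2 months, 1023, 896 and 1287 CPM at 12 months, and 1234, 984 and 980 CPM at 24 months. Every older library lay below every 2-month library. Hp fell by 1.02 on the log2 scale from 2 to 12 months (SE 0.21, edgeR adjusted p = 0.0127) and by 1.02 from 2 to 24 months (SE 0.21, adjusted p = 0.00784). The first of these calls did not hold without 2-month replicate 2 or 12-month replicate 1 or 2 (highest edgeR adjusted p 0.0725) or without the muscle libraries. Between 24 and 12 months, the step in which Cd163 rose 10.03-fold, Hp had an edgeR adjusted p of 0.994 (SE 0.21).

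Csf1, the main growth factor of macrophages, stood at 8.92, 8.16 and 8.55 CPM at 2 months, 7.95, 10.2 and 10.5 CPM at 12 months, and 12.1, 12.7 and 13.7 CPM at 24 months, and rose by 0.58 from 2 to 24 months on the log2 scale (SE 0.13, edgeR adjusted p = 0.00963). Il34, the second ligand of the CSF1 receptor, was 2.79 to 4.23, 4.52 to 5.01 and 2.78 to 3.99 CPM by age, highest in the 12-month libraries (12 against 2 months 0.43, SE 0.21, edgeR adjusted p = 0.236). Gas6, the bridging ligand of Mertk and Axl, stood at 29.0 to 39.9 CPM in all 9 libraries with an edgeR adjusted p of 0.709 over the 3 ages. Pros1, which codes for protein S, differed by 0.73 between 24 and 2 months (SE 0.26, edgeR adjusted p = 0.0713). Cx3cl1, which codes for fractalkine, and Tnfsf12, which codes for TWEAK, a factor that CD163 can bind, had an edgeR adjusted p over the 3 ages of 0.311 and 0.166. Without the salivary libraries 0 of the 7 ligand genes were called by edgeR between 12 and 2 or 24 and 2 months.

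**Figure D5:**
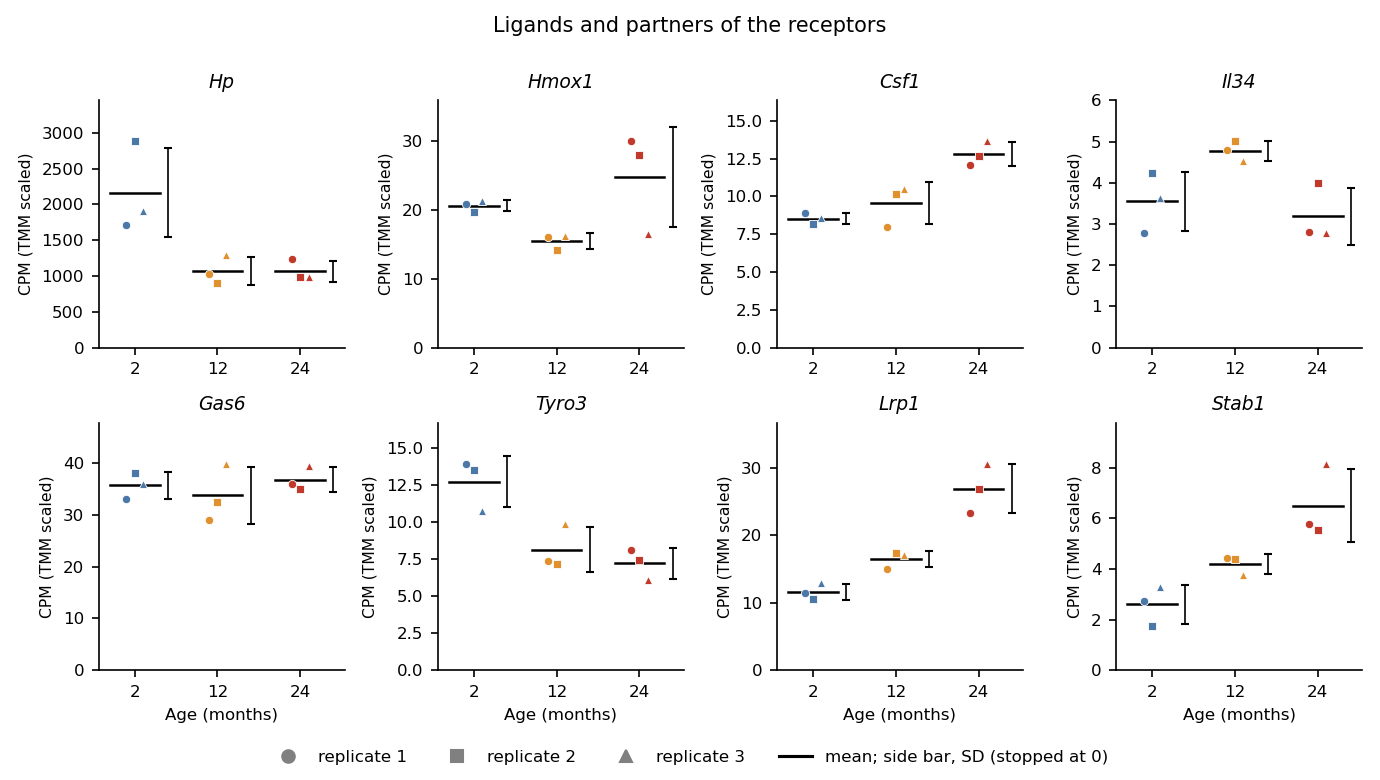
Level of 8 ligand and partner genes in the 9 libraries, in CPM on linear axes from 0 by age in months. Points are libraries, lines means and side bars the SD (n = 3). Hp and Tyro3 are highest at 2 months, Lrp1, Stab1 and Csf1 at 24 months, Gas6 overlaps at all ages, and Hmox1 is lowest at 12 months in all 3 libraries.

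Among 15 other tested genes of dying cell uptake, 2 rose and 1 fell from 2 to 12 months, 5 rose and 1 fell from 2 to 24 months, and 2 rose from 12 to 24 months. Of all genes, 5.41% rose and 2.52% fell, 9.82% rose and 7.56% fell, and 2.79% rose in these steps. Tyro3, the remaining TAM receptor gene, moved opposite to Axl: it stood at 14.0, 13.5 and 10.8 CPM at 2 months, 7.41, 7.15 and 9.91 CPM at 12 months, and 8.14, 7.43 and 6.08 CPM at 24 months. The 2-month libraries lay above all others. Tyro3 fell by 0.82 from 2 to 24 months on the log2 scale (SE 0.17, edgeR adjusted p = 0.00675), a call kept in 16 of 16 alternatives. It fell by 0.65 from 2 to 12 months (SE 0.16, edgeR adjusted p = 0.0321), a call kept in 9 of 17 and lost without 2-month replicate 1 or 2 or 12-month replicate 1 or 2.

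Lrp1, a large scavenger receptor that takes up many ligands, stood at 10.6 to 12.9 CPM at 2 months, 15.0 to 17.3 CPM at 12 months and 23.4 to 30.6 CPM at 24 months, with no overlap. It rose by 0.71 on the log2 scale from 12 to 24 months (SE 0.12, edgeR adjusted p = 0.00592), a call kept with any 1 library left out. From 2 to 12 months it rose by 0.50 (SE 0.12, edgeR adjusted p = 0.0251), lost without 2-month replicate 1 or 2 or 12-month replicate 2 or 3. Stab1, the scavenger receptor stabilin-1, rose by 1.32 from 2 to 24 months (SE 0.23, edgeR adjusted p = 0.00364), and Cd36, a receptor for oxidised lipids that fat cells and endothelium express too, by 2.20 (SE 0.30, adjusted p = 0.000908). Itgb5, an integrin chain of uptake named here after its value was seen, was the other gene that rose from 12 to 24 months (0.46, SE 0.10, edgeR adjusted p = 0.0213). The 5 higher between 24 and 2 months were 3 without 2-month replicate 2 or 3 or without the salivary libraries. The 2 higher between 12 and 2 months were 1 without 2-month replicate 1 or 2 or 12-month replicate 2, and the 2 between 24 and 12 months were 1 without 12-month replicate 1 or 2 or 24-month replicate 1 or 3. Without the salivary libraries 0 uptake genes were called by edgeR between 12 and 2 or 24 and 12 months, and without the muscle libraries 1 (Cd36) and 0 were, so the Lrp1 and Tyro3 calls of those steps were lost in both. Adipocyte genes, which summed to 0.411 to 1.15 CPM at 2 months, 7.002 to 21.5 CPM at 12 months and 5.70 to 18.1 CPM at 24 months, moved with Cd36, and their part in it was not tested.

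Of 10 tested genes of haem and iron handling, which deal with the cargo of CD163, 1 rose from 2 to 12 months, 2 from 2 to 24 months and 1 from 12 to 24 months, near the share of all genes called (7.93%, 17.4% and 4.39%). Without the salivary libraries the counts were 0, 1 and 0. Over the 3 ages together 4 of the 10 were called by edgeR, against 17.0% of all genes. Hmox1, the haem oxygenase that CD163 signalling is known to induce, stood at 20.9, 19.7 and 21.4 CPM at 2 months, 16.0, 14.2 and 16.3 CPM at 12 months, and 30.0, 28.0 and 16.6 CPM at 24 months. The 12-month libraries lay below all others, by little in the case of 24-month replicate 3. Its log2 difference was -0.41 between 12 and 2 months (SE 0.18, edgeR adjusted p = 0.178) and 0.68 between 24 and 12 months (SE 0.17, adjusted p = 0.0486). The latter was called in 4 of 17 alternatives and lost on leaving out any 1 library but 24-month replicate 3 (highest edgeR adjusted p 0.147), and also without the salivary or the muscle libraries.

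Tfrc, the transferrin receptor gene, stood at 46.1 to 65.0, 34.6 to 42.2 and 47.3 to 73.0 CPM by age, lowest at 12 months in every library (edgeR adjusted p over the 3 ages 0.0420). Slc11a1, a metal transporter of phagosomes, rose by 1.98 (SE 0.32, edgeR adjusted p = 0.00236) and Slc40a1, the iron exporter ferroportin, by 1.58 (SE 0.26, adjusted p = 0.00279) from 2 to 24 months. Slc11a1 was also the gene that rose from 2 to 12 months (1.46, SE 0.32, edgeR adjusted p = 0.0170), a call that did not hold on leaving out 2-month replicate 3, 12-month replicate 2, or either the salivary or the muscle libraries. Its call between 24 and 2 months was lost without the salivary libraries, that of Slc40a1 was not.

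Of 10 tested macrophage transcription factor genes, 4 rose from 2 to 12 months (5.41% of all genes) and 4 from 2 to 24 months (9.82%). Between 12 and 24 months 0 were called by edgeR or by DESeq2, with 0 higher and 1 lower at an unadjusted p under 0.05. Without 12-month replicate 3 or the muscle libraries 1 was called lower. Spi1, which codes for PU.1, stood at 2.03 to 2.84 CPM at 2 months, 4.45 to 6.03 CPM at 12 months and 4.37 to 5.70 CPM at 24 months. It rose by 1.10 from 2 to 12 months (SE 0.20, edgeR adjusted p = 0.00718), a call kept with any 1 library left out, and differed by -0.03 between 24 and 12 months (SE 0.20, adjusted p = 0.955). Mef2c, which B cells express too, rose by 1.5 (SE 0.30, edgeR adjusted p = 0.0107) over the first step, a call lost without 2-month replicate 2 or 12-month replicate 2. Nr1h3, which codes for the lipid sensor LXR alpha, rose by 1.68 from 2 to 24 months (SE 0.37, edgeR adjusted p = 0.0109). The lowest libraries of these 3 genes were those of 2 months, unlike those of Cd163 and Mertk. The 4 called between 12 and 2 months were 1 without 2-month replicate 2, 2 without 12-month replicate 2 and 0 without the salivary libraries, and the 4 between 24 and 2 months were 1 without the salivary libraries, with the Nr1h3 call lost.

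Of 14 tested genes known from the Lyve1-type resident macrophage, 4 rose and 1 fell from 2 to 12 months, 8 rose from 2 to 24 months and 1 rose from 12 to 24 months. Of all genes, 5.41% rose and 2.52% fell, 9.82% rose and 2.79% rose in these steps. Selenop, a secreted selenium carrier, stood at 7.40 to 14.2 CPM at 2 months, 16.7 to 28.0 CPM at 12 months and 34.8 to 40.8 CPM at 24 months, with no overlap. It rose by 1.76 from 2 to 24 months (SE 0.23, edgeR adjusted p = 0.000667), a call kept in 16 of 16 alternatives. Its call from 12 to 24 months (0.86, SE 0.22, edgeR adjusted p = 0.0478) was lost in 6 of the 9 fits that leave out 1 library: 2-month replicate 3, 12-month replicate 1 or 3, or any 24-month library. The growth factor gene Igf1, which fibroblasts express too, rose by 1.90 from 2 to 24 months (SE 0.25, edgeR adjusted p = 0.000665), and Clec4n, the fungal pattern receptor dectin-2, by 2.77 (SE 0.52, adjusted p = 0.00514). Wwp1, a ubiquitin ligase, was the gene that fell from 2 to 12 months (-0.46, SE 0.10, edgeR adjusted p = 0.0121), a call that needed 12-month replicate 2, the salivary libraries and the muscle libraries to be kept in. The Selenop call from 12 to 24 months was lost without either set of libraries too. Other genes of the list did not share the steady rise of Selenop, and 2 are named here after their values were seen. Cbr2 stood at 118 to 144 CPM at 2 months and 92.4 to 104 CPM at 12 months. At 24 months it had 103, 86.9 and 292 CPM in replicates 1, 2 and 3. Pf4 overlapped at all ages, at 0.648 to 1.33, 0.768 to 1.25 and 0.665 to 2.01 CPM.

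Vsig4, Marco and Fcna, 3 receptor or lectin genes of this and related types, were not tested, with at most 0.0524, 0.0204 and 0.628 CPM in any library. The 8 calls between 24 and 2 months were 5 without 2-month replicate 2 or 3, 4 without 24-month replicate 3 and 3 without the salivary libraries, where Selenop and Igf1 were called and Clec4n was not. The 4 higher between 12 and 2 months were 1 without 2-month replicate 2 or 3, 2 without 12-month replicate 1, and 0 without 12-month replicate 2 or without the salivary libraries.

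Of 10 tested genes that act below the CSF1 receptor, 5 rose from 2 to 12 months and 5 from 2 to 24 months. The shares of all genes that rose were 5.41% and 9.82%. Between 12 and 24 months 0 were called by edgeR or by DESeq2, with 0 higher and 1 lower at an unadjusted p under 0.05. Pik3cd, a phosphoinositide kinase of white blood cells, rose by 2.31 from 2 to 12 months (SE 0.38, edgeR adjusted p = 0.00396), a call kept with any 1 library left out. Inpp5d, the phosphatase SHIP1, rose by 1.66 (SE 0.33, edgeR adjusted p = 0.0109) and Fyb, an adaptor, by 1.46 (SE 0.29, adjusted p = 0.0103), and both calls were lost without 2-month replicate 2, that of Fyb also without the muscle libraries. T and B cells express several genes of this list, and of 7 B and T cell genes 7 rose in the same step (4 without the salivary libraries), with a part that was not tested. The 5 called between 12 and 2 months were 1 without 2-month replicate 2, 2 without 12-month replicate 2, 3 without 2-month replicate 3 or 12-month replicate 1, and 0 without the salivary libraries. The 5 between 24 and 2 months were 2 without 2-month replicate 2 or without the salivary libraries, and 3 without 2-month replicate 3 or 24-month replicate 3.

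Markers of other white blood cells stood beside these values. Of 8 tested monocyte genes, 5 rose from 2 to 12 months (5.41% of all genes) and 5 from 2 to 24 months (9.82%). They summed to 8.78 to 14.3 CPM at 2 months, 19.8 to 45.0 CPM at 12 months and 25.3 to 33.6 CPM at 24 months. Ly6c2, the Ly6C antigen of inflammatory monocytes, stood at 0.174 to 0.340 CPM at 2 months, 0.932 to 2.67 CPM at 12 months and 3.69 to 7.47 CPM at 24 months, and its calls between 12 and 2 and between 24 and 2 months were kept in every alternative run. Plac8 rose from 2 to 24 months by 2.69 (SE 0.39, edgeR adjusted p = 0.00134) and the integrin gene Itgal by 2.43 (SE 0.53, adjusted p = 0.00973).

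The monocyte genes S100a8, S100a9 and Chil3 had 0 counts in every 2-month library and at most 0.458 CPM later. Without 2-month replicate 2 the monocyte count was 2 in both comparisons with 2 months. Without 12-month replicate 2 it was 3 between 12 and 2 months, and without the salivary libraries it was 1 (Ly6c2) between 12 and 2 months and 2 (Ly6c2 and Plac8) between 24 and 2 months. Of 9 dendritic cell genes 3 rose from 2 to 12 (5.41% of all genes) and 3 from 2 to 24 months (9.82%). The first count was 1 without 2-month replicate 2 or 3 or 12-month replicate 2. Without the salivary libraries the counts were 0 and 1. These dendritic cell genes summed to 3.99 to 4.76, 10.8 to 16.1 and 9.01 to 17.3 CPM by age. Of 6 blood endothelial genes 0 were called in any comparison by edgeR or by DESeq2, with 2, 0 and 1 at an unadjusted p under 0.05 between 12 and 2, 24 and 2, and 24 and 12 months. Without 12-month replicate 3, 1 was called between 12 and 2 months. They summed to 21.6 to 23.8, 22.0 to 27.5 and 24.5 to 31.2 CPM by age. The part of these cell types in the values of the 10 genes was not tested.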

How the data were processed

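The authors deposited a table of raw counts per gene and a table of log2 values, both over the 9 libraries. The tools named in the submitters' processing notes are STAR, HTSeq, DESeq2, cutadapt and FastQC, with build GRCm38. Their versions, their settings and the strand of counting were not stated in what was read here. Each log2 value that the authors deposited was checked against the counts to within 1e-06, and none entered a test. Library totals were 40516863 to 42573877 counts. Gene positions and exonic lengths came from GENCODE M21, promoters from RefSeq.

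Counts were tested with edgeR 4.0.16 (R 4.3.3) by the quasi-likelihood test, with TMM scaling and a filter at a minimum count of 10, in 1 model of the 3 ages with 6 residual degrees of freedom. Benjamini-Hochberg adjustment ran over 14944 genes, and the common coefficient of variation was 21.2%. A second fit scaled libraries to 9 macrophage genes (counts + 0.5). The procedure was tested on simulated data first. Intervals of summed counts are exact Poisson at 95%.

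The 10 genes were given by name. Of each list, up to 4 genes with the smallest p over the 3 ages are named, with every ligand, and for genes of at least 1 CPM the 3 most alike by Pearson's r, leaving out antigen receptor segments and unnamed gene models. A few genes that this rule names are not reported here. The genes and lists were chosen with earlier results of these data known. Alternatives were other scalings, no filter, DESeq2 1.42.0, a replicate block, a fit of only the libraries compared, other reference genes, and leaving out 1 library, the 3 with salivary or the 2 with muscle transcripts, on the macrophage scale as a choice made after seeing the data. Counts of the 10 genes and of the lists under an alternative cover the genes tested with all libraries. Counts over all genes cover the genes that each fit tested. Pairs of libraries within an age differed by more than counting noise (chi-square per degree of freedom 23.9 to 211), so each counted as 1 replicate.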

Additional observations from a re-analysis of the deposited data

How the results depend on the processing

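For the 7 tested genes, 648 alternative values kept their direction and their side of the threshold, 73 lost a call, 18 gained one and 9 changed sign. Between 12 and 2 months, where 1 gene was called, no count filter gave 3 (1 higher, 2 lower), and the fit of only the libraries compared, in which Cd163 was too low to be tested, gave 0, as did leaving out the 3 salivary or the 2 muscle libraries. With 1 library left out it was 0 to 1. Between 24 and 2 months (5 called) the salivary libraries left out gave 3 and 1 library left out 3 to 6. Between 24 and 12 months (4 called) library totals alone gave 2, the salivary or the muscle libraries left out 0, and 1 library left out 2 to 5. Over the 3 ages (7 called) the salivary libraries left out gave 1, the muscle libraries 4 and 1 library 4 to 7. Leaving out the muscle libraries leaves 1 library of 12 months, assumed to vary like the others, and both of these fits have fewer samples. Against the 9 macrophage genes, 1 library left out gave 4 to 6, 2 to 4 and 1 to 2 calls between 12 and 2, 24 and 2, and 24 and 12 months. On that scale, in fits chosen after seeing the data, the salivary libraries left out gave 2, 1 and 0, and the muscle libraries 2 between 12 and 2 and 0 between 24 and 12 months. The values that changed sign, none of them called, all lay on that scale. With 1 library left out, Adgre1 ran from -0.52 to 0.18 between 12 and 2 months and from -0.15 to 0.54 between 24 and 2 months. Mrc1 ran from -0.23 to 0.067 between 24 and 2 months, and Cx3cr1 from -0.071 to 0.10 between 24 and 12 months, where the replicate block gave -0.00013 and the muscle libraries left out -0.042.

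The replicate numbers do not pair libraries: same-numbered libraries of different ages had correlations of their deviations of -0.177 to 0.0465, and 0 of 9 libraries correlated best with one of its own number. With the replicate block, 1, 5, 2 and 5 of the 7 genes were called between 12 and 2, 24 and 2, and 24 and 12 months and over the 3 ages. The causes of these changes were not tested unless named.

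Over all genes, 808 were called higher and 377 lower between 12 and 2 months, 1467 and 1130 between 24 and 2 months, and 417 and 239 between 24 and 12 months. Library totals alone, which raised the median log2 difference of all genes to 0.31 in both comparisons with 2 months, gave 1614 and 80, 2626 and 191, and 202 and 138. DESeq2 called 1135 and 644 between 12 and 2 months (of 17318 genes) and 726 and 472 between 24 and 12 months (of 14979). Without a count filter, over 31366 genes, it was 1363 and 663, and 874 and 612, in these comparisons. The replicate block gave 511 and 190 between 12 and 2 months and 277 and 132 between 24 and 12 months. The salivary libraries left out gave 97 and 30 between 12 and 2 months and 484 and 142 between 24 and 2 months, and 134 and 36 between 24 and 12 months, and the muscle libraries left out gave 641 and 105 between 12 and 2 months and 61 and 71 between 24 and 12 months. Over the 3 ages 2534 genes were called, 1640 with the block and 471 without the salivary libraries. With 1 library left out the 4 counts ran from 435 to 1285, 1160 to 2623, 312 to 700 and 1396 to 2532. Of 92 calls of genes named from the lists, 51 held with any 1 library left out and 55 were lost without the salivary libraries. Depth limited Lyve1, Folr2 and Timd4, which had 6 to 28 counts summed over an age.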
